A study of Mus musculus with 14 samples.

Results

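The 10 genes described here encode parts of the pathway from the G-CSF receptor through STAT3, with its feedback and neighbouring cytokine receptors: the receptor chains Csf3r, Il6st, Osmr and Il4ra, the kinase Jak2, the transcription factor Stat3, and the induced genes Socs3, Pim1, Bcl3 and Cebpd. They were taken by name, as the probe sets that the platform annotation gives exactly 1 of these symbols, a rule that uses no measured value, although the genes were picked with earlier results of these data known. That gave 25 of 45101 probe sets, all above the filter on dim signal, and 10 of the 13453 genes tested. Bone marrow cells of C57BL/6J wild type mice carrying the pOBcol2.3-GFP transgene, aged 6 to 8 weeks, were released with collagenase and sorted by flow cytometry. The groups were osteoblasts after G-CSF (3 arrays), untreated osteoblasts (3 arrays), endothelial cells after G-CSF (4 arrays) and untreated endothelial cells (4 arrays), all from mice that carried the same reporter. Osteoblasts were the CD45- ter119- CD31- GFP+ sort, with GFP under a type I collagen promoter fragment that is active in the osteoblast lineage. Endothelial cells were the CD45- ter119- GFP- CD31+ sort. G-CSF was injected under the skin at 250 ug per kg. The titles and protocol text of the G-CSF arrays give 5 days, that of the untreated arrays reads 7 days, and untreated mice received vehicle alone. Whether replicates came from separate animals is not stated in the labels, so each p-value measures the spread between these samples.

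G-CSF binds its receptor, the product of Csf3r, and brings together receptor-bound JAK kinases, which phosphorylate STAT3. STAT3 then enters the nucleus and switches on genes that include Socs3, whose protein binds the G-CSF receptor and gp130 and blocks their kinases. In marrow the receptor is best known from neutrophils and their precursors, while gp130, the product of Il6st, is carried by many cell types and is shared by the receptors of IL-6, LIF and oncostatin M. Values are log2 of the deposited intensity plus 16, which understates changes of dim genes, and levels of different genes cannot be set against each other on an array. Unless another test is named, p-values are 2-sided from limma, adjusted over all 13453 genes, and a gene is called at an adjusted p under 0.05. A group mean carries its SD, and a change or difference its SE.

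Promoter windows are printed for Socs3, the feedback gene, and for 3 genes whose G-CSF arrays lay above all untreated arrays in both sorts. Osmr also met that rule, and its window was searched but is not printed. Sequences are RefSeq windows of build GRCm38.p6, from 250 bases before to 50 bases after the annotated start, printed 5′ to 3′ on the strand of the gene. Capitals mark TTCNNNGAA, the letters of the element that STAT dimers bind, which reads the same on both strands.
Socs3, chr11:117969317-117969616, minus strand: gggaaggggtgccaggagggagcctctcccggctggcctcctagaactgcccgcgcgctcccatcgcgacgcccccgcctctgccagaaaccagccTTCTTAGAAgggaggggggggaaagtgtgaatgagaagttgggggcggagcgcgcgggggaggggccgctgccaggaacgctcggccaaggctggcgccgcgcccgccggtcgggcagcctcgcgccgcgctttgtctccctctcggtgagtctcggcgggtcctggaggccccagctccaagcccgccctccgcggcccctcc
Pim1, chr17:29490535-29490834, plus strand: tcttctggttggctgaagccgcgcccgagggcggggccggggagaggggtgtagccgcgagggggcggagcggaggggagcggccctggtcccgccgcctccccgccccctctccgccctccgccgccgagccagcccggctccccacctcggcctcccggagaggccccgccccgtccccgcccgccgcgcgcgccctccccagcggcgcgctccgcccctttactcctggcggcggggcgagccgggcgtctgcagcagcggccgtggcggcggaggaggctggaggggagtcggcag
Bcl3, chr7:19822706-19823005, minus strand: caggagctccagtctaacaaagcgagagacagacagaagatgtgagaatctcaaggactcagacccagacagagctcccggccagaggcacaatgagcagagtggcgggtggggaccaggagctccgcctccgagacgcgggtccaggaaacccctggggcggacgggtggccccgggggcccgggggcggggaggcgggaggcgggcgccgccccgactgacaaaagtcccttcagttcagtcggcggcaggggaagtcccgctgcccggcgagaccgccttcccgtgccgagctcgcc
Il4ra, chr7:125552021-125552320, plus strand: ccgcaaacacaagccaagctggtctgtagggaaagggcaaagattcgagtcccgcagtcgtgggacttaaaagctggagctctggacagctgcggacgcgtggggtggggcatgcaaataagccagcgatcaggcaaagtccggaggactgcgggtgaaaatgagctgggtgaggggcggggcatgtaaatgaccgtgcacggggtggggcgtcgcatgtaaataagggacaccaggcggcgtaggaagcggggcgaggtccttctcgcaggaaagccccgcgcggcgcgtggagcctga
Of the 10 genes, 9 had an entry and Cebpd had none, and Pim1 had a window for each of its annotated starts, which made 10 windows. TTCNNNGAA stood in the Socs3 window, as TTCTTAGAA from position -154 to -146 relative to the start, and in no other of the 10 windows. The motif was held by 8.3% of all 32851 windows. A match describes letters and not a bound site, and these windows leave out every element farther from the start.

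The 10 endothelial markers (Cdh5, Kdr and others) were all lower in osteoblasts than in endothelial cells, both after G-CSF and untreated. Of 7 osteoblast markers measured (Col1a1, Ibsp and others), 7 were higher in osteoblasts after G-CSF and 1 was higher untreated, and their mean log2 level was 12.72 to 14.51 on osteoblast arrays and 9.24 to 13.26 on endothelial arrays. The mean log2 level of 14 neutrophil markers (S100a8, Elane and others) was 9.89 to 13.16 over the 14 arrays, whose medians over all probe sets ran from 6.57 to 7.13. No gene of any marker list read 0 on an array, which without detection calls does not show that each is present. The summed intensity of the neutrophil markers was 191312 to 276813 in G-CSF osteoblasts and 46903 to 279230 in untreated osteoblasts, and 166470 to 242337 in G-CSF endothelial cells and 119084 to 192761 in untreated endothelial cells. Untreated osteoblast replicate 2 stood apart: its neutrophil markers averaged 12.92 on the log2 scale, against 10.40 and 9.89 on the other untreated osteoblast arrays, and its monocyte markers 10.56, against 7.48 and 7.59. Its B lineage markers averaged 9.52, against 6.46 and 7.32, and its erythroid markers 11.45, against 9.20 and 9.35. Markers of T cells, NK cells and megakaryocytes averaged 9.91 on it, against 7.23 and 7.16. Its osteoblast markers were the lowest of the group, at 12.72 against 14.27 and 14.51. Untreated endothelial replicate 1 had high skeletal muscle markers, at 13.52 against 7.85 to 9.44 in the rest of its group. Results are therefore also given without these arrays where that changes them.

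After G-CSF the osteoblast sort had none of the 10 genes called, and the endothelial sort had 1, the kinase gene Pim1. Called genes made up 0.23% of all genes in osteoblasts (0.186% higher) and 1.6% in endothelial cells (0.453% higher). The log2 change was positive for 8 of the 10 genes in osteoblasts and for 9 in endothelial cells. Every G-CSF array lay above every untreated array for 4 genes in osteoblasts (Pim1, Bcl3, Il4ra and Osmr) and for 7 in endothelial cells (these 4 with Csf3r, Stat3 and Cebpd), as was so for 3.61% and 4.65% of all genes. An unadjusted p under 0.05 was reached by 5 of the 10 genes in osteoblasts and by 7 in endothelial cells, beside 8.85% and 13.1% of all genes. The median change of all genes was -0.04 in osteoblasts and -0.05 in endothelial cells. In such bulk samples, more cells of a type and more RNA per cell cannot be told apart.

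**Figure D1:**
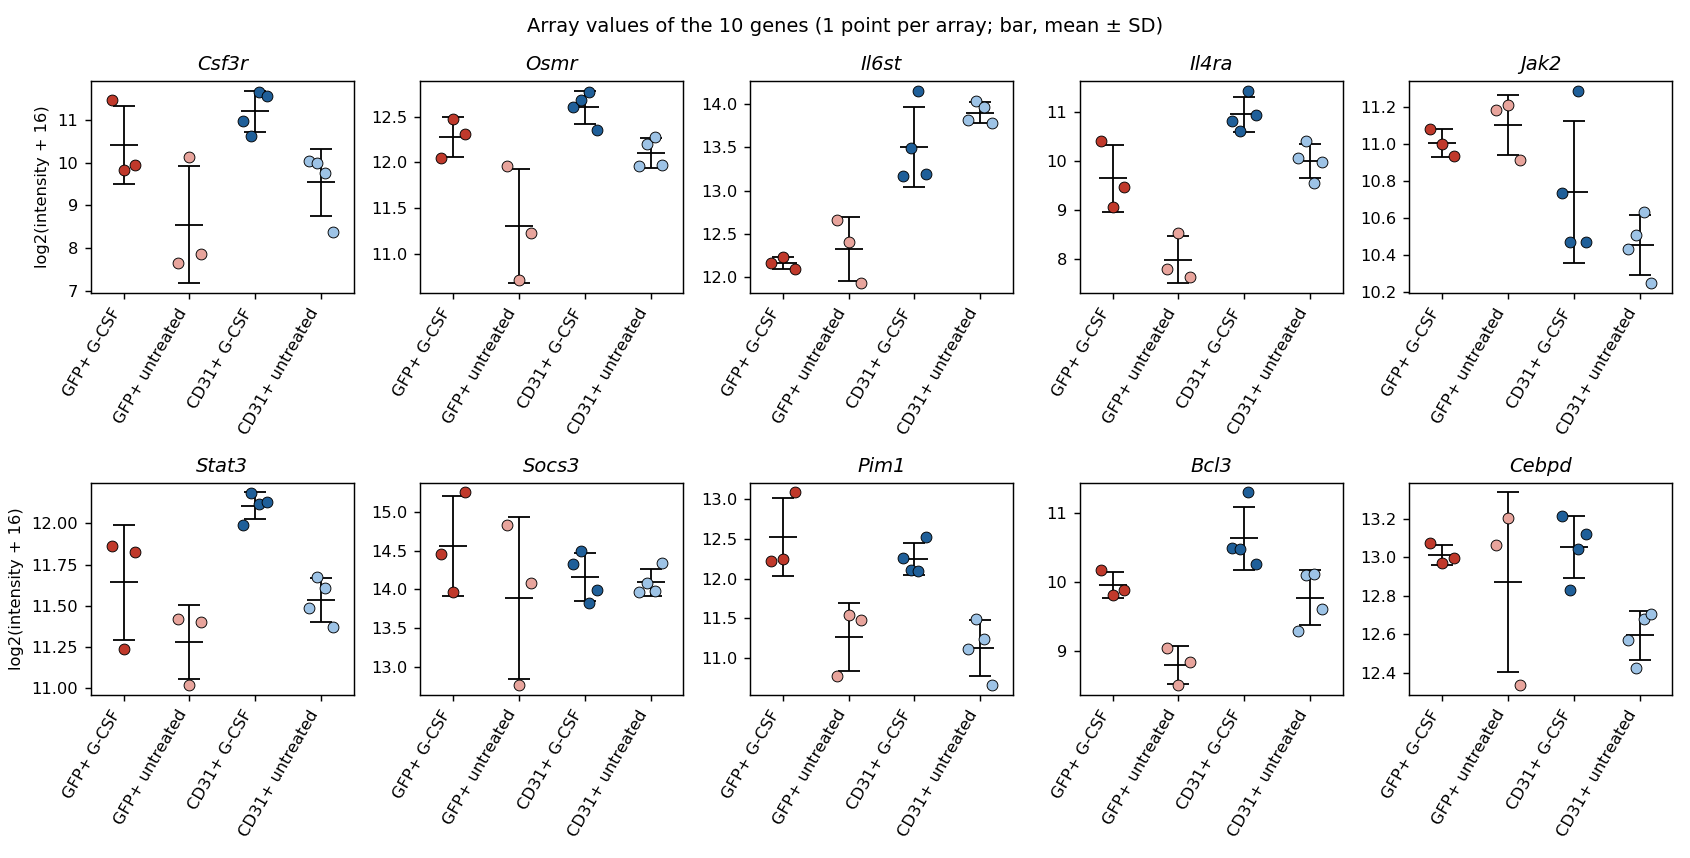
Level of each of the 10 genes on each of the 14 arrays, as log2 of intensity plus 16 (vertical axes, which differ between panels), with 1 point per array and bars for the mean and SD of each group; GFP+ is the osteoblast sort and CD31+ the endothelial sort. For Pim1 the 7 G-CSF arrays lie between 12.10 and 13.09, above all 7 untreated arrays, which lie between 10.66 and 11.55.

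The G-CSF receptor gene Csf3r varied widely between arrays of 1 group. Its log2 level was 11.48, 9.84 and 9.95 in G-CSF osteoblasts and 7.64, 10.13 and 7.88 in untreated osteoblasts. Untreated replicate 2 reached into the range of the G-CSF arrays, while the other untreated arrays lay well below all of them. The change was 1.87 ± 0.62 (adjusted p = 0.315). Without untreated replicate 2, the array with high markers of several blood cell types, it was 2.66 and called (adjusted p = 0.00821). That fit called 475 of all genes after G-CSF in osteoblasts, in place of 31. In endothelial cells Csf3r read 10.99, 10.62, 11.65 and 11.55 after G-CSF and 10.04, 9.99, 9.75 and 8.39 untreated. These groups did not overlap, and the change was 1.66 ± 0.54 (adjusted p = 0.142). Csf3r was called when the endothelial arrays were fitted alone (adjusted p = 0.0373). The neutrophil list averaged 13.16, 12.74 and 12.04 in G-CSF osteoblasts and 10.40, 12.92 and 9.89 in untreated osteoblasts. In endothelial cells the list averaged 12.68, 12.09, 12.81 and 13.02 after G-CSF and 12.15, 12.08, 11.88 and 11.30 untreated. The list overlapped narrowly between the treatments there, with G-CSF replicate 2 (12.09) below untreated replicate 1 (12.15). None of its 14 genes was called in either sort, and their median change was 1.63 in osteoblasts and 0.80 in endothelial cells. Ptprc, which encodes the CD45 that both sorts gated out, read 13.81, 12.39 and 11.33 in G-CSF osteoblasts and 10.04, 12.05 and 9.27 in untreated osteoblasts. It read 10.97 to 11.83 in G-CSF endothelial cells and 9.10 to 10.54 in untreated endothelial cells, without overlap. The part of these cells in the level of Csf3r was not tested.

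**Figure D2:**
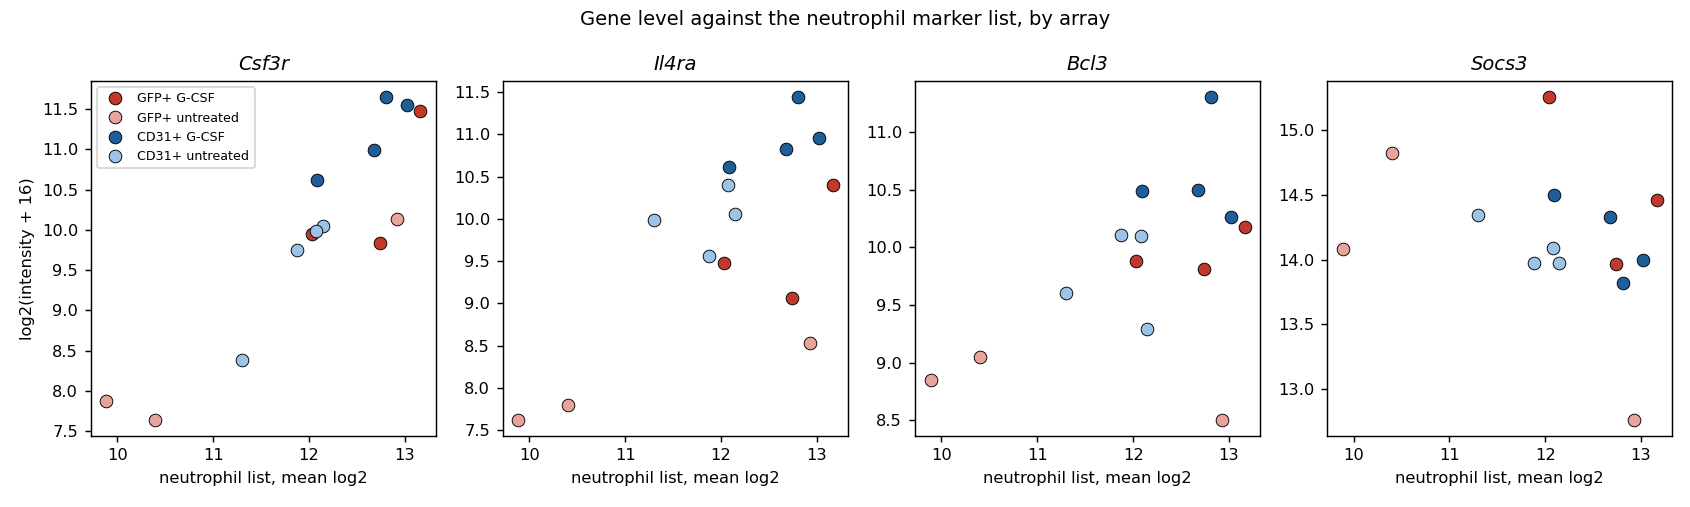
Level of Csf3r, Il4ra, Bcl3 and Socs3 (vertical axes, log2 of intensity plus 16) against the mean log2 level of the 14 neutrophil markers (horizontal axes), with 1 point for each of the 14 arrays, coloured by group. For Csf3r the array of untreated osteoblasts with the highest neutrophil level (12.92) also has the highest Csf3r level of its group (10.13); Socs3 is lowest on that array, at 12.77.

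The 3 genes with the most Csf3r-like levels over the 14 arrays were Tlr2, a receptor for bacterial lipoproteins, Cd177, a neutrophil surface protein, and Padi4, which citrullinates histones in neutrophils. Each had a Pearson r of 0.97 with Csf3r. After the group means were taken out, the most similar were Nfam1, Cyth4 and Dock2, also at 0.97. These values are a description over 14 arrays that share their scaling, their sort and their content of other cells. The same holds for the most similar levels of the other genes below, which also carry the differences between the groups. Cd177 is also 1 of the 14 neutrophil markers.

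Il4ra, the alpha chain shared by the receptors of IL-4 and IL-13, had higher arrays after G-CSF in both sorts without passing the test. Its log2 level was 10.41, 9.06 and 9.48 in G-CSF osteoblasts and 7.79, 8.54 and 7.62 in untreated osteoblasts. The groups did not overlap, the change was 1.66 ± 0.35, or 3.17-fold, and the adjusted p was 0.0763. Without untreated osteoblast replicate 2 the change was 1.94 and called (adjusted p = 0.00517). That fit called 475 of all genes after G-CSF in osteoblasts, in place of 31. On the arrays left, the neutrophil list averaged 10.40 and 9.89 untreated and 12.04 to 13.16 after G-CSF. The part of blood cells in the level of Il4ra was not tested. Endothelial cells read 10.82, 10.61, 11.44 and 10.95 after G-CSF and 10.06, 10.41, 9.56 and 9.99 untreated. Here too the groups did not overlap, with a change of 0.95 ± 0.30 (adjusted p = 0.130), and the gene was called when the endothelial arrays were fitted alone (adjusted p = 0.0418). All 3 Il4ra probe sets had positive changes, from 1.12 to 1.66 in osteoblasts and from 0.74 to 0.95 in endothelial cells. Its most similar genes over the 14 arrays were the lysosomal protease gene Ctsd (r = 0.96), Csf2rb2 (0.95), a beta chain related to that of the GM-CSF receptor, and Upp1 (0.95), which splits uridine.

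Osmr, the receptor chain that joins gp130 to bind oncostatin M, read 12.04, 12.47 and 12.31 in G-CSF osteoblasts and 11.96, 10.71 and 11.23 in untreated osteoblasts. All G-CSF arrays were higher, though untreated replicate 1 lay just below the lowest of them. The change was 0.98 ± 0.26, or 1.97-fold (adjusted p = 0.200), and without untreated replicate 1 it was 1.31 and called (adjusted p = 0.0458). Without untreated replicate 2, the lowest of these arrays, the change was 0.68 and not called. Endothelial arrays read 12.61, 12.68, 12.77 and 12.35 after G-CSF and 11.96, 12.20, 12.28 and 11.97 untreated. They did not overlap either, and the change was 0.50 ± 0.22 (adjusted p = 0.344). The other 2 Osmr probe sets were dim, with changes of 0.32 and -0.11 in osteoblasts and -0.07 and 0.30 in endothelial cells. The levels most like those of Osmr were those of Klf10, a transcription factor induced by TGF-beta (r = 0.92), of Bcl3 (0.89) and of Ldlrad4 (0.86).

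Il6st, which encodes gp130, was the receptor gene with a negative change in both sorts. It read 12.17, 12.24 and 12.10 in G-CSF osteoblasts and 12.66, 12.41 and 11.93 in untreated osteoblasts, so the G-CSF arrays lay within the range of the untreated ones. In endothelial cells it read 13.16, 13.49, 14.15 and 13.19 after G-CSF and 13.81, 14.03, 13.96 and 13.78 untreated, and G-CSF replicate 3 was the highest of all. The changes were -0.16 ± 0.25 (adjusted p = 0.927) in osteoblasts and -0.40 ± 0.21 (adjusted p = 0.479) in endothelial cells. All 4 Il6st probe sets had negative changes in endothelial cells, from -0.99 to -0.40, while those in osteoblasts ran from -0.18 to 0.53. Peak1, Nod1 and F2rl3 had the most similar levels (r = 0.97 each). After the group means were taken out, other genes were the most similar, Tgfbrap1, Fam71b and Fzd8 (0.92, 0.91 and 0.91).

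Jak2, the kinase that works beneath the G-CSF receptor and gp130, was not called in either sort. Osteoblasts read 11.08, 11.00 and 10.94 after G-CSF and 11.18, 11.21 and 10.91 untreated, with a change of -0.10 ± 0.22 (adjusted p = 0.953). The 95% interval of that change, not adjusted for the number of genes, ran from -0.56 to 0.36. Endothelial cells read 10.74, 10.47, 11.29 and 10.47 after G-CSF and 10.44, 10.51, 10.63 and 10.25 untreated, with a change of 0.29 ± 0.19 (adjusted p = 0.616) that was 0.10 without G-CSF replicate 3, the highest array. The treatments overlapped in both sorts. Ankhd1 (r = 0.90), Akr1b10 and Acap2 (0.88 each) had the most similar levels.

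Stat3 read 11.99, 12.18, 12.12 and 12.13 in G-CSF endothelial cells and 11.49, 11.68, 11.61 and 11.37 in untreated endothelial cells. The groups were tight and did not overlap. The change was 0.57 ± 0.17, or 1.48-fold, with an adjusted p of 0.108. Stat3 was called with the replicate number as a block (adjusted p = 0.0238), when the endothelial arrays were fitted alone (adjusted p = 0.0307), and with each array centred on its median (change 0.75, adjusted p = 0.0389). In osteoblasts it read 11.86, 11.24 and 11.83 after G-CSF and 11.42, 11.02 and 11.40 untreated. G-CSF replicate 2 fell among the untreated arrays, and the change was 0.36 ± 0.19 (adjusted p = 0.641). Each G-CSF array was above the untreated array of its own number, and with the number as a block the adjusted p was 0.301. The 4 Stat3 probe sets had changes from -0.06 to 0.57 in endothelial cells and from -0.12 to 0.53 in osteoblasts. Litaf (r = 0.88), Klf10 and the neutrophil chemokine gene Cxcl3 (0.87 each) had the most similar levels.

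Socs3, the inhibitor that STAT3 induces, showed no called change. Its log2 level was 14.46, 13.97 and 15.25 in G-CSF osteoblasts and 14.82, 12.77 and 14.08 in untreated osteoblasts. The treatments overlapped, and untreated replicate 2 was the lowest of the 14 arrays. The change was 0.67 ± 0.41 (adjusted p = 0.709), and 0.10 without that array. Endothelial cells read 14.33, 14.50, 13.82 and 13.996 after G-CSF and 13.97, 14.09, 13.98 and 14.34 untreated, a change of 0.07 ± 0.36 (adjusted p = 0.976). The 95% interval of the endothelial change, not adjusted, ran from -0.70 to 0.83. The probe set that stands for Socs3 and another of its 3 carry the suffix that Affymetrix gives to probes which may cross-hybridise. The third does not, and on it the endothelial arrays did not overlap, at 11.39 to 11.51 after G-CSF and 11.06 to 11.34 untreated. Its changes were 0.29 in endothelial cells and 0.51 in osteoblasts, without a call when all probe sets were tested singly (adjusted p = 0.876 and 0.840). Levels most like those of Socs3 were those of Rrm2b (r = 0.94), a ribonucleotide reductase subunit, Wnt9a (0.93), a Wnt ligand, and Klf6 (0.90), a zinc finger transcription factor.

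Pim1, a serine/threonine kinase gene that STAT3 and STAT5 induce, was the called gene. It read 12.26, 12.11, 12.10 and 12.53 in G-CSF endothelial cells and 11.11, 11.49, 11.24 and 10.66 in untreated endothelial cells. All 4 G-CSF arrays lay above all 4 untreated arrays. Pim1 rose by 1.12 ± 0.24, or 2.18-fold (adjusted p = 0.0380). The call held in 13 of 22 alternatives and not without any 1 array other than untreated replicate 2, where the adjusted p ran from 0.0628 to 0.119. In osteoblasts Pim1 read 12.23, 12.25 and 13.09 after G-CSF and 10.77, 11.55 and 11.48 untreated. These groups did not overlap either, and the change was 1.26 ± 0.28, or 2.39-fold (adjusted p = 0.0947). Without untreated osteoblast replicate 2 it was 1.40 and called (adjusted p = 0.0177), in a fit that called 475 of all genes in place of 31. The dimmer of the 2 Pim1 probe sets changed by 0.59 in osteoblasts and 0.78 in endothelial cells, without a call. Gpr84, a fatty acid receptor of myeloid cells, Prok2, a secreted peptide, and Anxa1, which binds membrane lipids, had the most similar levels (r = 0.85, 0.85 and 0.83).

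Bcl3, a nuclear partner of NF-kappaB p50 and p52, read 10.17, 9.81 and 9.89 in G-CSF osteoblasts and 9.05, 8.50 and 8.85 in untreated osteoblasts. All G-CSF arrays lay above all untreated arrays. The change was 1.16 ± 0.29, or 2.23-fold (adjusted p = 0.160), and Bcl3 was called with the replicate number as a block (adjusted p = 0.0495). In endothelial cells it read 10.49, 10.49, 11.30 and 10.27 after G-CSF and 9.29, 10.10, 10.11 and 9.61 untreated. The groups did not overlap, and the change was 0.86 ± 0.25 (adjusted p = 0.0979). The block (adjusted p = 0.0203) and centring on the median (1.05, adjusted p = 0.0495) each made it a call. Bcl3 levels were most like those of Ptpn12 (r = 0.93), a tyrosine phosphatase, Inhbb (0.92), which encodes an activin subunit, and Tox4 (0.92).

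Cebpd, a transcription factor of the acute phase response, read 13.22, 12.83, 13.05 and 13.12 in G-CSF endothelial cells and 12.57, 12.43, 12.68 and 12.71 in untreated endothelial cells. The groups did not overlap, and the change was 0.46 ± 0.18 (adjusted p = 0.261). In osteoblasts it read 13.07, 12.97 and 12.996 after G-CSF and 13.07, 13.21 and 12.34 untreated. The G-CSF arrays lay inside the untreated range, and the change of 0.14 ± 0.21 (adjusted p = 0.923) turned to -0.12 without untreated replicate 3. The dimmer of the 2 Cebpd probe sets changed by -0.11 in osteoblasts and -0.05 in endothelial cells, without a call. Its endothelial arrays overlapped between the treatments. Ccno and Ciart (r = 0.83 each) and the acute phase gene Hp (0.82) had the most similar levels.

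**Figure D3:**
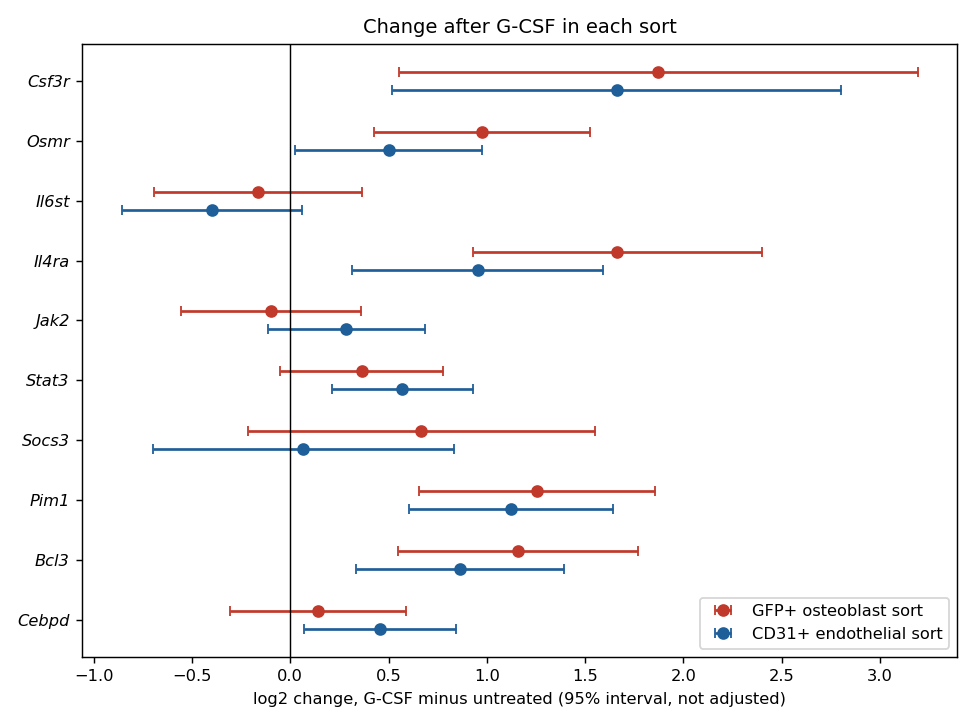
Change of each of the 10 genes after G-CSF (horizontal axis, log2, G-CSF minus untreated), with 1 row per gene, red points for the osteoblast sort and blue points for the endothelial sort; bars are 95% intervals not adjusted for the number of genes. Intervals lie above 0 in both sorts for Csf3r, Osmr, Il4ra, Pim1 and Bcl3, and those of Jak2, Il6st and Socs3 span 0 in both.

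**Figure D4:**
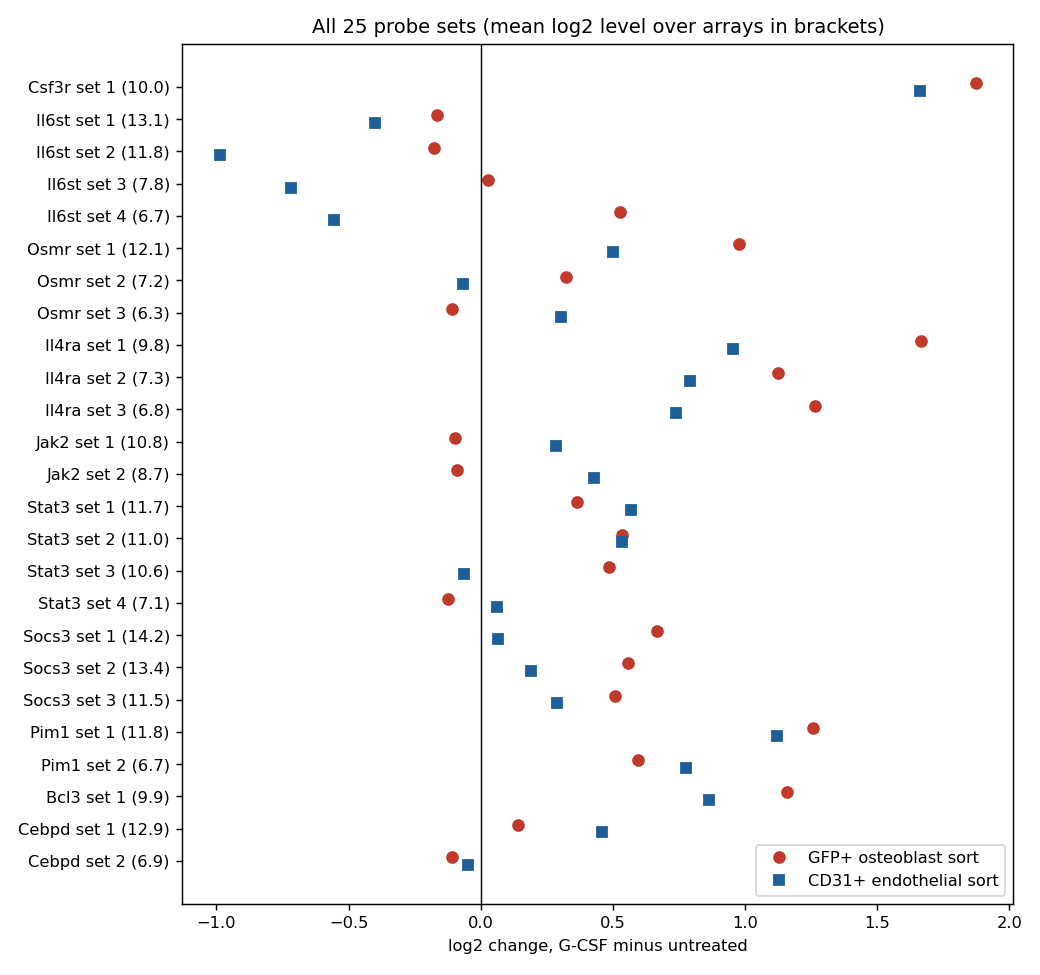
Change after G-CSF (horizontal axis, log2, G-CSF minus untreated) of all 25 probe sets of the 10 genes, with red points for osteoblasts and blue squares for endothelial cells; set 1 of each gene is the brightest, and brackets give its mean log2 level. The 3 sets of Il4ra and both of Pim1 lie above 0 in both sorts, and the 4 of Il6st lie below 0 in endothelial cells.

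The G-CSF changes of the osteoblasts were then set against those of the endothelial cells in 1 fit. None of the 10 genes, and 0% of all genes, differed between the sorts by limma. An unadjusted limma p under 0.05 was reached by 622 of the 13453 genes. None of the 10 genes was among them, and their lowest unadjusted p was 0.140, for Il4ra. The difference, osteoblasts minus endothelial cells, was largest in size for Il4ra, at 0.71 ± 0.46 (95% interval -0.26 to 1.69), and for Socs3, at 0.60 ± 0.55 (-0.57 to 1.77). For Pim1 it was 0.13 ± 0.37 (-0.66 to 0.93) and for Csf3r 0.21 ± 0.82 (-1.53 to 1.96). Intervals are not adjusted, and each still spans differences of either sign. The difference for Pim1 and for Csf3r turned negative under some alternatives.

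**Figure D5:**
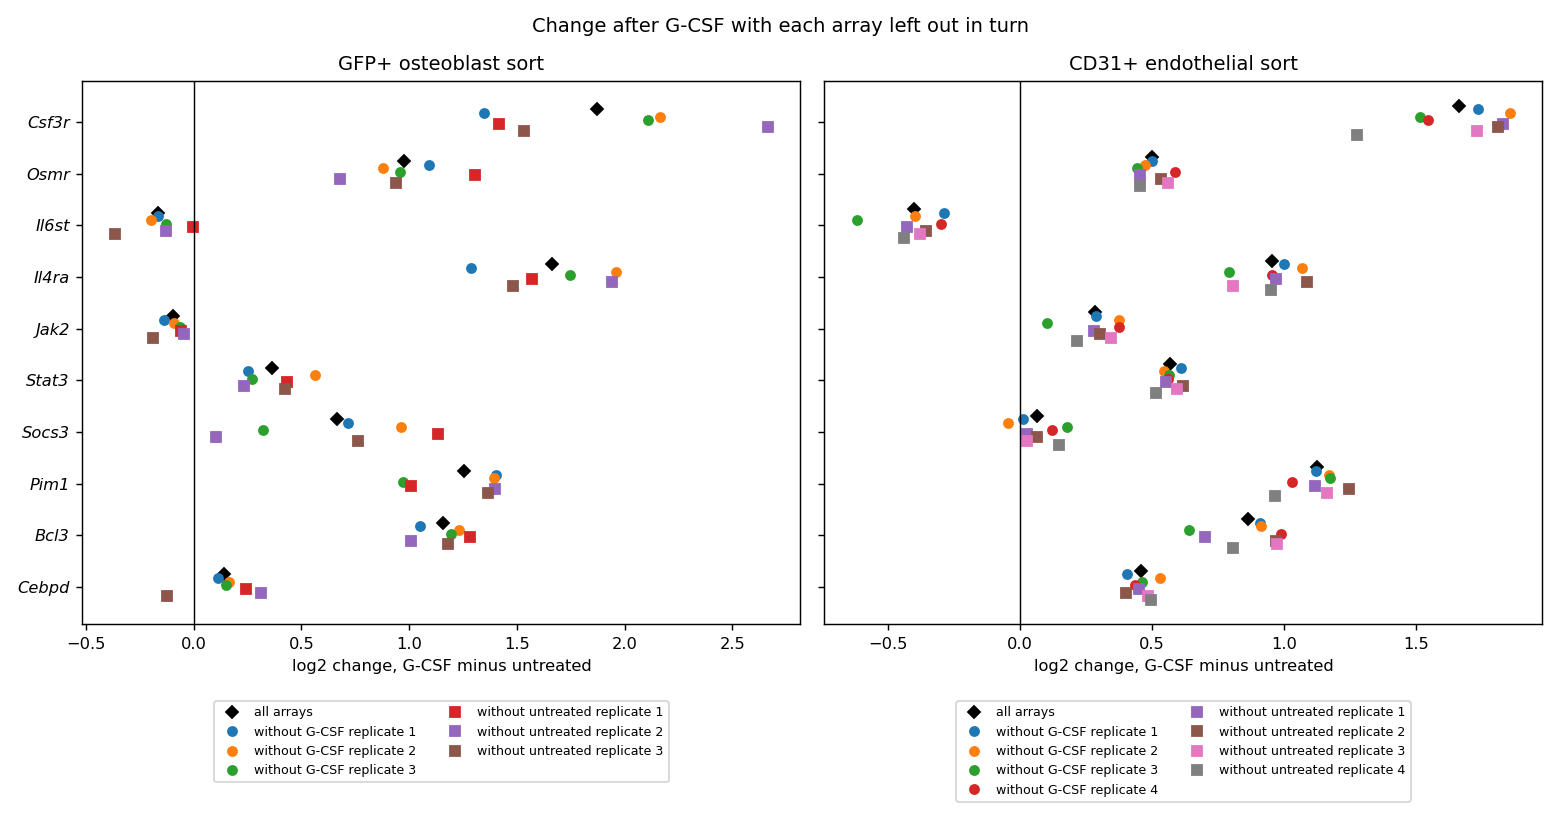
Change of each of the 10 genes after G-CSF (horizontal axes, log2, G-CSF minus untreated) with all arrays (black diamonds) and with 1 array of the sort left out in turn (coloured points), for osteoblasts on the left and endothelial cells on the right. In osteoblasts Csf3r spans 1.35 to 2.66, with the highest value where untreated replicate 2 is left out; in endothelial cells Pim1 spans 0.97 to 1.25.

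Between the sorts, Il6st and Il4ra were lower in osteoblasts than in endothelial cells at both treatments. In untreated mice 4 of the 10 genes were lower in osteoblasts (Il6st, Il4ra, Bcl3 and Osmr) and 1 was higher (Jak2), beside 12.8% and 13.6% of all genes. The same genes did not overlap between the sorts, 4 lower and 1 higher, as 15.9% and 16.7% of all genes did not. After G-CSF 2 were lower (Il6st and Il4ra) and 0 higher, beside 14.4% and 17.5% of all genes, and 4 were lower without overlap (these with Stat3 and Bcl3), beside 18%. Centring each array on its median gives a median difference of all genes of -0.37 in place of 0.02 after G-CSF and of -0.23 in place of 0.00 untreated, so differences under about that size depend on the scaling.

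Il6st averaged 12.17 ± 0.07 in osteoblasts and 13.50 ± 0.46 in endothelial cells after G-CSF, and 12.33 ± 0.37 in osteoblasts and 13.90 ± 0.12 in endothelial cells untreated. All 6 osteoblast arrays lay below all 8 endothelial arrays. The differences were -1.33 ± 0.23 after G-CSF (adjusted p = 0.000441) and -1.56 ± 0.23 untreated (2.96-fold lower, adjusted p = 0.000150). The untreated call held in all 21 alternatives run, and the G-CSF call in 20, with the mean of the 4 probe sets as the exception (-0.68, adjusted p = 0.157). The second brightest probe set differed by 0.08 after G-CSF and by -0.73 untreated, without a call in either.

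Il4ra averaged 9.65 ± 0.69 in osteoblasts and 10.96 ± 0.35 in endothelial cells after G-CSF, and 7.99 ± 0.49 in osteoblasts and 10.003 ± 0.35 in endothelial cells untreated. At each treatment the sorts did not overlap, although G-CSF osteoblast replicate 1 reached the level of the highest untreated endothelial array. The differences were -1.31 ± 0.32 after G-CSF (adjusted p = 0.00601) and -2.02 ± 0.32 untreated (4.05-fold lower, adjusted p = 0.000293). The other 2 Il4ra probe sets were dimmer and differed less. After G-CSF they differed by -0.76 and -0.56, without a call with all probe sets tested singly (adjusted p = 0.0757 and 0.316). Untreated, both differed by -1.09, and only the first was called (adjusted p = 0.0161 and 0.0556). With the number of printed decimals as a batch term the G-CSF call was lost (-1.03, adjusted p = 0.0659), and the untreated one held in all 21 alternatives.

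Osmr averaged 12.28 ± 0.22 in osteoblasts and 12.60 ± 0.18 in endothelial cells after G-CSF, where it was not called (adjusted p = 0.336). Untreated it averaged 11.30 ± 0.63 in osteoblasts and 12.10 ± 0.16 in endothelial cells, a difference of -0.80 ± 0.24 (adjusted p = 0.0227) that was called in 13 of 21 alternatives. The nearest arrays of the untreated sorts both read 11.96. Without untreated osteoblast replicate 2 the difference was -0.51 (adjusted p = 0.0882). The 2 dimmer Osmr probe sets differed by -0.93 and 0.27 untreated. Neither was called with all probe sets tested singly (adjusted p = 0.175 and 0.624). Csf3r averaged 10.42 ± 0.91 in osteoblasts and 11.20 ± 0.48 in endothelial cells after G-CSF, and 8.55 ± 1.38 in osteoblasts and 9.54 ± 0.78 in endothelial cells untreated, and was not called (adjusted p = 0.341 and 0.234). Without untreated osteoblast replicate 2 the untreated difference of Csf3r was -1.78 and called (adjusted p = 0.0121).

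Jak2 averaged 11.10 ± 0.16 in osteoblasts and 10.46 ± 0.16 in endothelial cells untreated, a difference of 0.65 ± 0.20, or 1.56-fold (adjusted p = 0.0273). Its second probe set differed by 0.96, also called when all probe sets were tested singly (adjusted p = 0.0255). Centred on the median the first differed by 0.42 without a call (adjusted p = 0.132), and the call was lost without any 1 of 4 untreated arrays, osteoblast replicates 1 or 2 or endothelial replicates 1 or 4 (adjusted p = 0.0547 to 0.0866). After G-CSF the difference was 0.26 ± 0.20 (adjusted p = 0.356). Stat3 averaged 11.64 ± 0.35 in osteoblasts and 12.11 ± 0.08 in endothelial cells after G-CSF, a difference of -0.46 ± 0.18 (adjusted p = 0.0653), and the third of its probe sets was called the other way, at 0.74 (adjusted p = 0.0420 with all probe sets tested singly). Untreated, the difference of Stat3 was -0.26 ± 0.18 (adjusted p = 0.336).

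Of the induced genes, Bcl3 averaged 9.96 ± 0.19 in osteoblasts and 10.64 ± 0.46 in endothelial cells after G-CSF, a difference of -0.68 ± 0.27 (adjusted p = 0.0655). Untreated it averaged 8.80 ± 0.28 in osteoblasts and 9.78 ± 0.40 in endothelial cells, a difference of -0.98 ± 0.27 (adjusted p = 0.0139) called in 20 of 21 alternatives. Pim1, Socs3 and Cebpd were not called between the sorts at either treatment. Pim1 averaged 12.52 ± 0.49 in osteoblasts and 12.25 ± 0.20 in endothelial cells after G-CSF, and 11.27 ± 0.43 in osteoblasts and 11.13 ± 0.35 in endothelial cells untreated. Socs3 averaged 14.56 ± 0.65 in osteoblasts and 14.16 ± 0.31 in endothelial cells after G-CSF, and 13.89 ± 1.04 in osteoblasts and 14.10 ± 0.17 in endothelial cells untreated. Cebpd averaged 13.01 ± 0.05 in osteoblasts and 13.05 ± 0.16 in endothelial cells after G-CSF, and 12.87 ± 0.47 in osteoblasts and 12.60 ± 0.13 in endothelial cells untreated. The untreated difference of Cebpd was 0.27, and without untreated osteoblast replicate 3 it was 0.54 and called (adjusted p = 0.0380). The sign changed under some alternatives for Pim1 at both treatments, for Socs3 untreated and for Cebpd after G-CSF.

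The 10 genes did not all vary together. Over the 14 arrays the most alike were Bcl3 and Osmr (Pearson r = 0.89), Bcl3 and Il4ra (0.86), Bcl3 and Stat3 (0.85) and Csf3r and Il4ra (0.82). After the group means were taken out, Il6st and Jak2 (0.80), Csf3r and Il4ra (0.74) and Bcl3 and Jak2 (0.71) were the most alike, and Csf3r and Socs3 the most opposed (-0.70). The arrays share their scaling, and untreated osteoblast replicate 2, high in Csf3r and low in Socs3 and Osmr, weighs on these values, so they are given as a description.

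The rest of the pathway was read from lists of 76 other genes, of which 64 were tested. None of the 64 was called after G-CSF in either sort, beside 0.23% of all genes in osteoblasts and 1.6% in endothelial cells. Their median change was 0.19 in osteoblasts and 0.11 in endothelial cells, beside -0.04 and -0.05 for all genes. Among 5 ligands that act through gp130, Osm, or oncostatin M, averaged 10.10 ± 1.19 in G-CSF osteoblasts and 8.56 ± 0.82 in untreated osteoblasts (adjusted p = 0.337), and Clcf1 changed by 0.59 (adjusted p = 0.713). In endothelial cells Il6 changed by 1.08 (adjusted p = 0.356) and Osm by 0.87 (adjusted p = 0.457). Among 5 related receptor chains, Lifr, the LIF receptor, averaged 11.65 ± 0.29 in G-CSF endothelial cells and 12.54 ± 0.22 in untreated endothelial cells, with an adjusted p of 0.276. Lepr, the leptin receptor, averaged 8.31 ± 0.36 in G-CSF endothelial cells and 9.28 ± 0.54 in untreated endothelial cells (adjusted p = 0.289). In osteoblasts the receptor chains with the lowest adjusted p were Cntfr, at 0.57 (adjusted p = 0.846), and Il6ra, at 0.34 (adjusted p = 0.923).

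The partners of Il4ra were covered by Il13ra1, a chain of the IL-13 receptor, and Stat6, the factor that IL-4 activates. Il13ra1 averaged 9.51 ± 0.50 in G-CSF osteoblasts and 8.49 ± 0.49 in untreated osteoblasts, without overlap (adjusted p = 0.336), and changed by 0.64 in endothelial cells (adjusted p = 0.380). Stat6 changed by -0.16 in osteoblasts and 0.28 in endothelial cells. Among 7 other JAK and STAT genes, Stat2 changed by -0.71 and Stat4 by 1.15 in osteoblasts (adjusted p = 0.635 and 0.684), and Jak3 by 0.60 and Stat5b by 0.30 in endothelial cells (adjusted p = 0.359 and 0.592). The 15 negative regulators had a median change of -0.06 in osteoblasts and 0.11 in endothelial cells. Of these, Ptpn6, the phosphatase SHP-1 of blood cells, changed by 1.25 in osteoblasts (adjusted p = 0.637) and 1.14 in endothelial cells (adjusted p = 0.433), Pias3 by -0.43 in osteoblasts and Ptpn1 by 0.63 in endothelial cells.

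Of 20 other genes known as STAT3 targets, Lcn2, an iron-scavenging lipocalin that is also on the neutrophil list, averaged 14.39 ± 0.48 in G-CSF osteoblasts and 12.26 ± 1.61 in untreated osteoblasts (adjusted p = 0.181). Lrg1, a secreted leucine-rich glycoprotein, averaged 12.04 ± 0.76 in G-CSF osteoblasts and 9.84 ± 1.57 in untreated osteoblasts (adjusted p = 0.181). In endothelial cells Batf, a transcription factor of the AP-1 family, averaged 8.11 ± 0.32 after G-CSF and 7.23 ± 0.41 untreated, and Cebpb, a relative of Cebpd, 12.93 ± 0.26 after G-CSF and 12.32 ± 0.27 untreated (adjusted p = 0.118 each). Among 10 genes of myeloid receptor signalling, Csf2rb, the beta chain of the GM-CSF receptor, averaged 12.02 ± 0.85 in G-CSF osteoblasts and 9.36 ± 1.66 in untreated osteoblasts (adjusted p = 0.0977). It averaged 12.89 ± 0.45 in G-CSF endothelial cells and 11.31 ± 0.20 in untreated endothelial cells (adjusted p = 0.153). Gab2, an adaptor, changed by 0.88 in osteoblasts (adjusted p = 0.226), and Spi1, a myeloid transcription factor, by 1.14 in endothelial cells (adjusted p = 0.283).

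Between the sorts 11 of the same 64 genes were higher and 11 lower in osteoblasts after G-CSF (17.2% each, beside 17.5% and 14.4% of all genes). Untreated, 10 were higher and 11 lower (15.6% and 17.2%, beside 13.6% and 12.8%), so these shares lay near those of all genes. Of the receptor chains related to gp130, 3 were higher and 1 lower in osteoblasts after G-CSF, and 2 were higher and 1 lower untreated. Lepr was 9.04-fold higher in osteoblasts after G-CSF (adjusted p = 4.55e-05) and 5.48-fold higher untreated (adjusted p = 0.000592), and Lifr was 5.74-fold and 3.55-fold higher (adjusted p = 0.000145 and 0.00249). Cntfr, the CNTF receptor, averaged 7.22 ± 0.47 in osteoblasts and 5.53 ± 0.69 in endothelial cells after G-CSF (adjusted p = 0.0170). The endothelial level lies below 5.78, the cut under which dim probe sets were dropped, so no fold is given. Il27ra, the IL-27 receptor chain, was 2.62-fold lower after G-CSF and 2.35-fold lower untreated (adjusted p = 0.00643 and 0.0157). Of the ligands, Lif and Ctf1 were 2.79-fold and 2.72-fold higher in osteoblasts after G-CSF (adjusted p = 0.00538 and 0.0178), and Osm was 2.80-fold lower untreated (adjusted p = 0.0357).

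Among other JAK and STAT genes, the kinase gene Jak3 was 3.11-fold lower in osteoblasts after G-CSF (adjusted p = 0.000561) and 2.19-fold lower untreated (adjusted p = 0.0100), and Stat6, Stat2 and Tyk2 were lower after G-CSF, by 1.73-fold, 1.98-fold and 1.47-fold. Of the negative regulators, Ptpn2, a phosphatase of JAKs, was 2.00-fold higher after G-CSF and 1.73-fold higher untreated, Pias1 was 1.83-fold higher untreated, Pias3 and Pias4 were 1.57-fold and 1.65-fold lower after G-CSF, and Cish was 1.70-fold lower untreated. Among STAT3 targets, Pim3, a relative of Pim1, was 5.17-fold lower after G-CSF (adjusted p = 7.02e-06) and 4.18-fold lower untreated, and Icam1, a leukocyte adhesion molecule, 3.09-fold and 4.43-fold lower. Bcl2l1, a survival gene, was 5.35-fold lower after G-CSF and 2.54-fold lower untreated, and Lrg1 2.93-fold and 8.75-fold lower. Timp1, an inhibitor of matrix proteases, was 6.51-fold higher after G-CSF and 4.02-fold higher untreated, Vegfa was 3.22-fold higher after G-CSF, and Myc was 2.47-fold higher untreated. In the myeloid signalling list Shc1 was 1.65-fold higher after G-CSF and 1.498-fold higher untreated, Cebpa 2.34-fold higher untreated, and Csf2rb and Gab2 were 3.88-fold and 1.87-fold lower untreated.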

How the data were processed

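Total RNA of sorted cells, 100 ng per sample, was hybridised to 14 Affymetrix mouse arrays. The deposited values are intensities on a linear scale, 1 per probe set, made by the authors with Affymetrix Expression Console 1.1 per the submitters' processing notes. Which algorithm summarised the probes is not given in the sources used here. On every array the 2%-trimmed mean was 500, so the deposited scaling was kept. No counts or detection calls were used, and precision is limited by how many arrays there are.

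Of 45101 probe sets, 64 controls, 932 with several symbols in the platform annotation and 9160 with none were left out. Intensities were turned into log2(intensity + 16). The dimmest fraction, 0.333, of probe sets was dropped, and each gene was read from its brightest probe set by mean, giving 13453 genes. Median log2 values of the arrays ran from 6.57 to 7.13. A model of 4 group means was fitted to all 14 arrays with limma 3.58.1 (R 4.3.3), with a trend in the variance prior, and p-values were adjusted by Benjamini and Hochberg. The procedure was tested on data simulated with independent normal noise, at the same SD for a gene in all 4 groups. A wider spread in osteoblasts, or an array shifted in many genes at once, is not part of that simulation. Simulated log2 changes of 1 were called for 23% of changed genes in osteoblasts and 47% in endothelial cells. Changes of 2 were called for 72% and 87%, so changes near 1 can often go without a call.

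The 10 genes and all lists were chosen with earlier results of these data known. Named were all 10 genes, the called genes of each pathway list (at most 6 by size of change) or otherwise the 2 with the lowest adjusted p, and the 3 genes most correlated with each of the 10.

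Replicate numbers come from the titles. Deviations from the group means correlated between same-numbered G-CSF and untreated arrays by 0.223 to 0.315 in osteoblasts and 0.102 to 0.377 in endothelial cells. The best match of an array bore its own number for 6 of 6 osteoblast arrays and 7 of 8 endothelial arrays. The main fit does not pair arrays. Pairs by number entered only an alternative fit with the number as a block, and blocked values are given where they change a call. Osteoblast replicates 2 and 3 are printed with up to 7 decimals and all other arrays with 1, and that difference served as a batch term. Alternatives also covered the pseudocount (1 and 64), quantile normalisation, median centring, other dim filters, probe set choice, the prior, only the arrays compared, and arrays left out.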

Additional observations from a re-analysis of the deposited data

How the results depend on the processing

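Results were recomputed with 1 choice changed at a time. Of 31 genes called after G-CSF in osteoblasts, the count became 2 with only the arrays compared, 64 with the replicate block, 427 with 2 untreated arrays left out together (osteoblast replicate 2, endothelial replicate 1), and 4 to 475 without 1 array, with 475 where untreated osteoblast replicate 2 was left out. Of 215 in endothelial cells, it became 104 with quantile normalisation, 139 with median centring (83 higher and 56 lower, in place of 61 and 154), 462 with only the arrays compared, 660 with the replicate block and 28 to 388 without 1 array. The difference of the changes had 0 calls, 1 with probe sets averaged per gene, 1 with the replicate block, 1 without both arrays named above and 0 to 21 without 1 array. Tested singly, probe sets gave 7219 calls between the sorts after G-CSF in place of 4287 genes, and 6076 untreated in place of 3553. Median centring turned 2351 higher and 1936 lower after G-CSF into 1452 and 3974, and 1831 and 1722 untreated into 1239 and 2575.

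Of the 10 genes, 0 were called after G-CSF in osteoblasts, 1 with the replicate block (Bcl3), 3 without both arrays and 0 to 3 without 1 array. In endothelial cells 1 was called, 0 with quantile normalisation, 3 with centring, 4 with only the arrays compared, 3 with the replicate block, 0 without both arrays and 0 to 1 without 1 array. Between the sorts the count was 5 with centring, 1 with the mean of probe sets and 1 with the decimals as a batch, in place of 2, after G-CSF, and 3 with the decimals, in place of 5, untreated. The block changed no other call of the 10 genes. The cause of these moves was not tested, except that fewer arrays or other arrays enter where the setting says so.

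Signs turned only for changes that were not called. After G-CSF in osteoblasts Il6st was 0.0534 with the mean of probe sets, Stat6 was 0.0773 without both arrays, and without 1 array Il6ra ran from -0.17 to 0.96, Stat6 from -0.347 to 0.0773 and Cebpd from -0.12 to 0.31. In endothelial cells Stat5b was -0.14 with the mean of probe sets, and Socs3 ran from -0.0463 to 0.18 without 1 array. For the difference of the changes Pim1 was -0.0229 with centring and -0.0242 with the mean of probe sets, Stat3 was 0.0383 with that mean, Lepr was -0.0308 without both arrays, and without 1 array Csf3r ran from -0.31 to 1.00 and Pim1 from -0.15 to 0.29. Between the untreated sorts Pim1 was -0.0901 with centring, -0.15 with the mean of probe sets, -0.25 with the decimals, -0.00515 without both arrays and -0.0176 to 0.39 without 1 array. There Socs3 was 0.41 without probe sets that may cross-hybridise, 0.21 with the decimals, 0.32 without both arrays and -0.67 to 0.36 without 1 array, Stat3 was 0.11 with the mean of probe sets, and Il13ra1 was 0.14 with the decimals. Between the sorts after G-CSF Pim1 was -0.11 with centring, -0.175 with the mean of probe sets, -0.12 with the decimals and -0.0101 to 0.42 without 1 array. Cebpd was 0.0490 with quantile normalisation, 0.0115 with the mean of probe sets, 0.0869 with the decimals and -0.12 to 0.0131 without 1 array, Jak2 was -0.12 with centring, and Stat3 was 0.15 with the mean of probe sets. No detection call per probe set was used, so how far each dim signal stands above background is unknown.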

Other observations

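Markers of cell types other than those sorted changed in level beside the 10 genes, and are given here for the lists not described above. Of 7 erythroid markers, 2 were lower after G-CSF in endothelial cells and 0 were called in osteoblasts, with median changes of -2.49 and -2.38. The 8 B lineage markers had medians of -1.92 in endothelial cells and -1.38 in osteoblasts with no call. Adipoq, or adiponectin, the 1 tested gene of the adipocyte list, was lower after G-CSF in both sorts, at 9.73 to 10.75 in G-CSF osteoblasts and 12.17 to 12.75 in untreated osteoblasts, and at 7.32 to 8.02 in G-CSF endothelial cells and 10.70 to 11.38 in untreated endothelial cells. Of the 7 osteoblast markers, 1 was lower after G-CSF in endothelial cells, with a median change of -1.59, and 0 were called in osteoblasts (median 0.03). Median changes were 0.03 in endothelial cells and 0.29 in osteoblasts for 10 endothelial markers, 0.16 and 1.03 for 11 monocyte and macrophage markers, -1.62 and -0.23 for 9 skeletal muscle markers, -0.35 and 0.68 for 7 pericyte and smooth muscle markers, and 0.18 and 0.06 for 4 markers of T cells, NK cells and megakaryocytes, all without a call.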
